A study of Mus musculus with 2 samples.

Results

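Keratin genes were followed in RNA-seq libraries of mouse ear epidermis treated with imiquimod, 1 from K14 conditional Il9ra KO mice and 1 from wild-type mice. The members were the genes of the deposited table that carried a RefSeq transcript and a name of Krt followed by a digit, without keratin-associated protein genes and Krtdap. They numbered 51 of 26242 named genes, 28 of type I and 23 of type II. Both groups were C57BL/6 mice whose ears had received 5% imiquimod cream on 6 consecutive days, and neither had an untreated counterpart. The label K14 conditional Il9ra KO names keratin 14, so the gene used to direct the deletion is itself a member of the family. Keratin 14 is made in the basal layer and in the outer root sheath of hair follicles, which limits the deletion to these cells and their descendants. The deleted part of the gene, the age and sex of the mice and the number of animals per library are stated in none of the sources used here. The question was how keratin transcripts stand in inflamed epidermis whose keratinocytes lack the interleukin-9 receptor.

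Keratins form the intermediate filaments of epithelial cells. A filament is built from dimers of an acidic type I and a basic type II keratin, so the genes are used in pairs that mark the state of the cell. Basal keratinocytes use Krt5 with Krt14 and switch to Krt1 with Krt10 as they leave the basal layer. Wounded or psoriasis-like epidermis turns on Krt6a, Krt6b, Krt16 and Krt17, while the inner root sheath and the hair shaft each have keratins of their own.

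Levels are in FPKM (fragments per kilobase, scaled to depth), a unit that allows for length, so genes can be compared with each other. Estimated depth, read from the spacing of the lowest values, was about 31200000 fragments for the knockout library and 24000000 for the wild-type library. The spread between animals is unknown with 1 library per genotype, and no difference was tested. The targeted gene, listed as Il9r, was at 0.011 FPKM in the knockout library and at 0.039 FPKM in the wild-type library, too low to check the labels. Of 10 keratinocyte markers other than keratins all 10 were above 40 FPKM in both libraries, with Lor, the cornified envelope protein loricrin, at 3401 FPKM in the knockout library and 3467 FPKM in the wild-type library. Xist was at 30.7 FPKM in the knockout library, against 32.9 FPKM in the wild-type library.

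Keratins were a large part of both transcriptomes. Their summed level was 44282 FPKM in the knockout library and 42825 FPKM in the wild-type library, or 7.18% and 6.80% of the FPKM of all named genes. Krt10, Krt2, Krt14, Krt5 and Krt1 made up 92.8% of it in the knockout library and 92.1% in the wild-type library. Krt10 was the most abundant of all genes in both libraries, followed by Krt2, and Krt14 ranked 4 in both. At the other end, 24 keratins were under 1 FPKM in both libraries. Type I genes held 55.7% of keratin FPKM in the knockout library and 55.4% in the wild-type library, a difference of 0.26 percentage points. Without Krt1, Krt10, Krt5 and Krt14 the difference had the other sign, at 13.4% in the knockout library and 14.8% in the wild-type library.

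**Figure D1:**
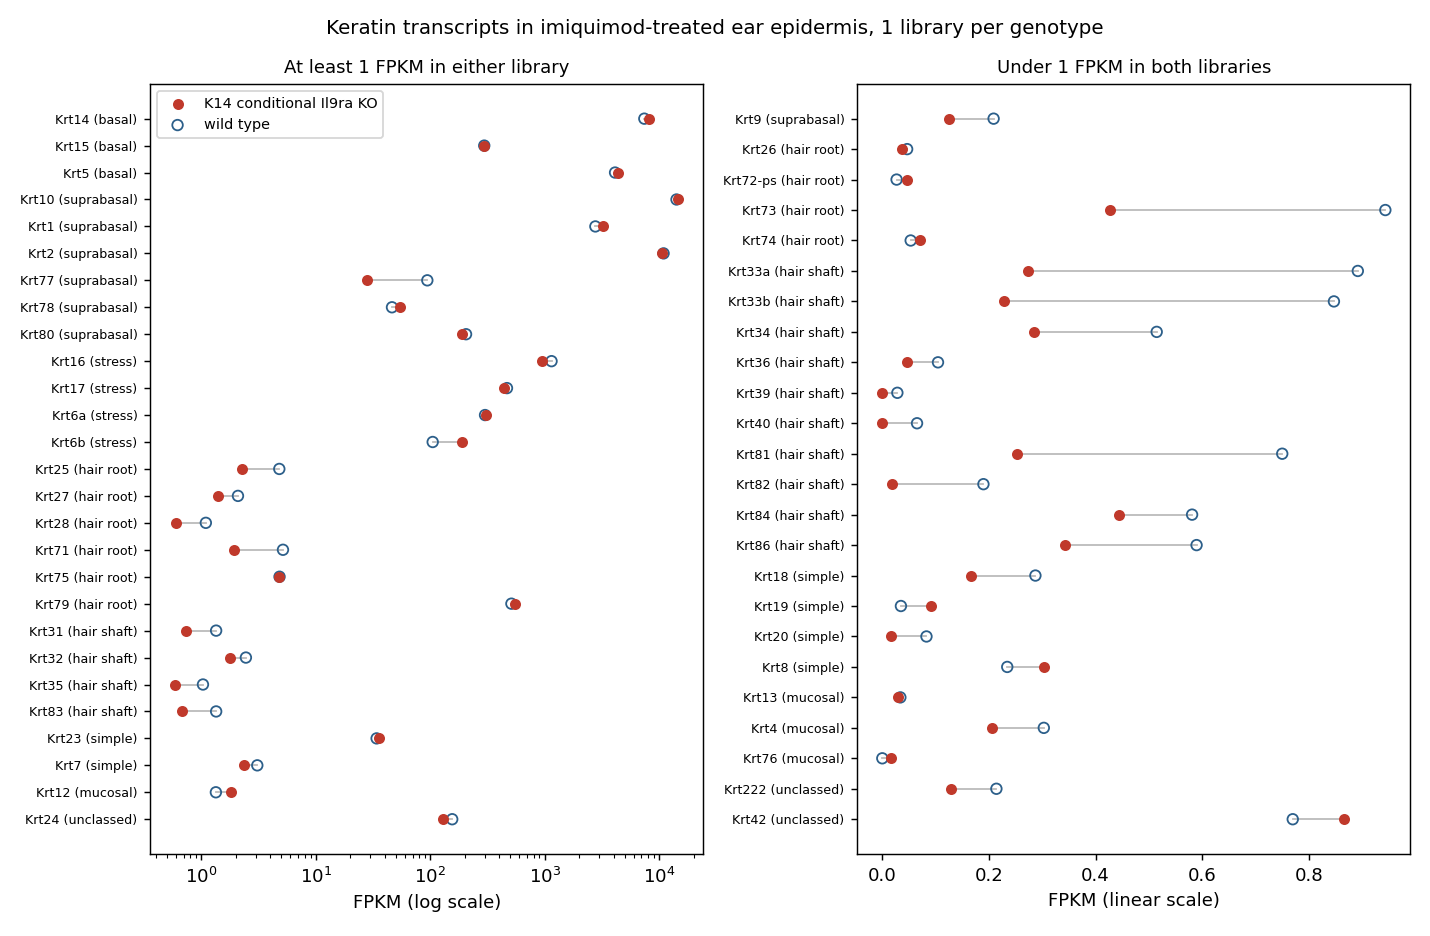
FPKM of each of the 51 keratin genes in the K14 conditional Il9ra KO library (filled) and the wild-type library (open), with the site of each keratin in brackets. The left panel has a log axis and holds the 27 genes that reach 1 FPKM in a library, the right panel a linear axis and the 24 others; the pairs of points lie close together for the abundant epidermal keratins, while the 14 hair shaft points are lower in the knockout library.

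Differences between the libraries were small for most of the family. On the scale log2((knockout FPKM + 1)/(wild-type FPKM + 1)), which understates differences of low genes, 2 of the 27 keratins that reached 1 FPKM in a library were 2-fold lower in the knockout library, Krt77 and Krt71, and 0 were 2-fold higher. Among all 11886 genes past the same limit 0.345% were 2-fold lower and 0.412% 2-fold higher. The keratins' median difference was -0.09, beside -0.02 for all genes, and with a limit of 5 FPKM it was 0.04. Of the 27 keratins 17 were lower by any amount, where 55.6% of all genes were. Of these 27, 4 hair keratins were past 1 FPKM in the wild-type library alone, which favours lower values. Of the 51 keratins 4 had a p below 0.05 in the authors' deposited table and 1 of them, Krt77, a q below 0.05. Over all 26264 rows of the authors' deposited table used here, low genes included, 1.01% had such a p and 0.0761%, or 20, such a q; that test compares 2 libraries and not the genotypes.

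**Figure D2:**
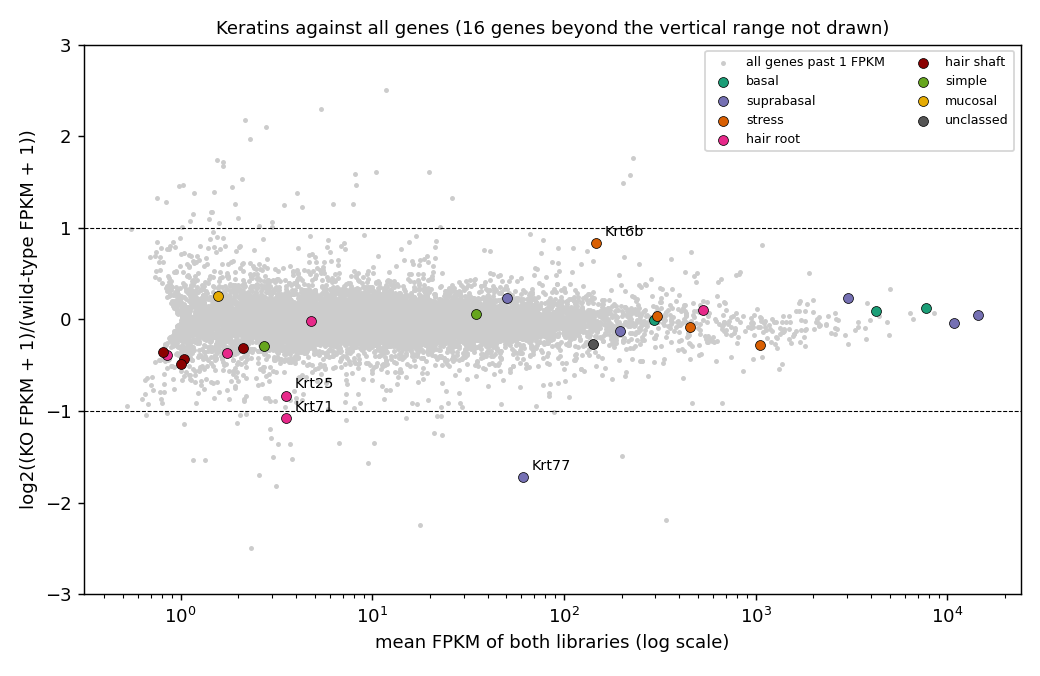
Difference between the libraries, log2((KO FPKM + 1)/(wild-type FPKM + 1)), against mean FPKM (log axis) for all genes that reach 1 FPKM in a library (grey) and for keratins coloured by site; dashed lines mark 2-fold. Krt77 and Krt71 lie below the lower line, Krt25 just above it and Krt6b, at 0.84, below the upper line, while the most abundant keratins lie near 0.

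The 3 basal keratins differed little. Krt14, the type I keratin of basal keratinocytes, was at 8083 FPKM in the knockout library, against 7421 FPKM in the wild-type library. Its type II partner Krt5 was at 4401 FPKM in the knockout library and 4119 FPKM in the wild-type library. The ratio of Krt5 to Krt14 was thus 0.545 in the knockout library and 0.555 in the wild-type library. Krt15, a type I keratin of basal cells and of the hair follicle bulge, was at 294 FPKM in the knockout library, against 296 FPKM in the wild-type library. Its sign depended on scaling: it was higher in the knockout library once the median gene or the upper quartile was set equal between libraries. Summed over the 3 genes, basal keratins were 1.08-fold higher in the knockout library.

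Suprabasal keratins were also at similar summed levels, 28880 FPKM in the knockout library and 28230 FPKM in the wild-type library, but Krt77 stood apart. Krt10, the type I keratin of spinous and granular cells, was at 14704 FPKM in the knockout library, against 14182 FPKM in the wild-type library. Krt1, its type II partner, was at 3262 FPKM in the knockout library and 2772 FPKM in the wild-type library, a log2 difference of 0.23. Krt2, a type II keratin of the upper layers that is strong in mouse ear skin, was at 10645 FPKM in the knockout library, against 10929 FPKM in the wild-type library. In both libraries Krt2 was therefore more abundant than Krt1, and the ratio of Krt1 to Krt10 was 0.222 in the knockout library and 0.195 in the wild-type library. Krt78, expressed in suprabasal layers of stratified epithelia, was at 54.9 FPKM in the knockout library and 46.3 FPKM in the wild-type library. Krt80, found in differentiated keratinocytes, was at 188 FPKM in the knockout library, against 205 FPKM in the wild-type library. Krt9, the type I keratin of footpad epidermis, was at 0.13 FPKM in the knockout library and 0.21 FPKM in the wild-type library.

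Krt77, a type II keratin that is suprabasal in mouse epidermis, was at 27.8 FPKM in the knockout library, against 94.3 FPKM in the wild-type library. This is 3.39-fold lower in the knockout library and a log2 difference of -1.72; of 11886 genes, 13 had a lower difference. The authors' deposited table gives Krt77 a p of 5e-05 and a q of 0.041. These levels correspond to about 2544 fragments in the knockout library and 6635 in the wild-type library, so counting error is small beside the difference. Krt77 (ENSMUSG00000067594, minus strand of chromosome 15, 101858731 to 101869705 in GRCm38, the assembly of mm10) lies next to Krt1, which was higher in the knockout library. The nearest keratin transcript in sequence, Krt73, shared 73.8% of bases over 35.5% of its length, a low match beside that of Krt6a and Krt6b. The ratio of Krt77 to Krt1 was 0.0085 in the knockout library and 0.034 in the wild-type library.

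The 250 bases before the start of Krt77 (RefSeq, GRCm38.p6, chr15:101869706-101869955, minus strand) are shown because it differed most. Both strands were searched for TATAAA, which is the core of the TATA box. Also searched were TGANTCA, which the AP-1 factors bind, and TTCNNNGAA, which is bound by STAT factors such as those that signal below the interleukin-9 receptor. The last motif was CTTTGAA, which is bound by LEF1, a factor of hair keratin genes. No exact match to these strings is in this window, so all bases are in lower case. Other AT-rich strings, such as the tatatata of this window, were not searched.
Krt77: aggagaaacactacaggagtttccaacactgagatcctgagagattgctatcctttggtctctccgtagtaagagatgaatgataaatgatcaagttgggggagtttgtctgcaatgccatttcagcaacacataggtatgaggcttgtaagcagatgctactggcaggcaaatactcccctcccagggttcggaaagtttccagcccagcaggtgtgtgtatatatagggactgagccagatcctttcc
Among 27025 mouse genes with such a window, TATAAA occurs in 12.97%, TGANTCA in 6.87%, TTCNNNGAA in 7.18% and CTTTGAA in 4.64%. Of the 35 keratins with a window, 17 hold TATAAA, 1 holds TGANTCA, 4 hold TTCNNNGAA and 5 hold CTTTGAA. A match describes the sequence and does not show a bound site.

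Among the 4 keratins induced by wounding and hyperproliferation, Krt6b was higher in the knockout library, Krt16 was lower and the others lay close together. Their summed level was 1886 FPKM in the knockout library and 2021 FPKM in the wild-type library. Krt6b, a type II keratin, was at 188 FPKM in the knockout library, against 105 FPKM in the wild-type library, 1.79-fold higher, with a log2 difference of 0.84; 66 of 11886 genes had a higher one. The authors' deposited table gives Krt6b a p of 0.00145 and a q of 0.313. Krt6a, its neighbour on chromosome 15 and close copy, was at 309.6 FPKM in the knockout library and 301 FPKM in the wild-type library. Transcripts of Krt6a and Krt6b share 91.1% of bases over the whole of Krt6b, so reads may be divided unevenly between them. Summed, the copies were at 498 FPKM in the knockout library, against 406 FPKM in the wild-type library, 1.23-fold higher.

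Krt16, the type I partner of keratin 6, was at 948 FPKM in the knockout library and 1147 FPKM in the wild-type library, a log2 difference of -0.28. Krt17, a type I keratin of stressed epidermis and of the outer root sheath, was at 440 FPKM in the knockout library, against 468 FPKM in the wild-type library. Krt16 also shares 87.0% of bases with Krt14 over 80.6% of its length, and Krt14 was far more abundant. Both type II stress keratins were thus higher in the knockout library and both of type I lower, none of the 4 by 2-fold. Krt6a and Krt17 lay near 0, at log2 differences of 0.04 and -0.09. The split by type therefore rests on Krt6b and Krt16.

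**Figure D3:**
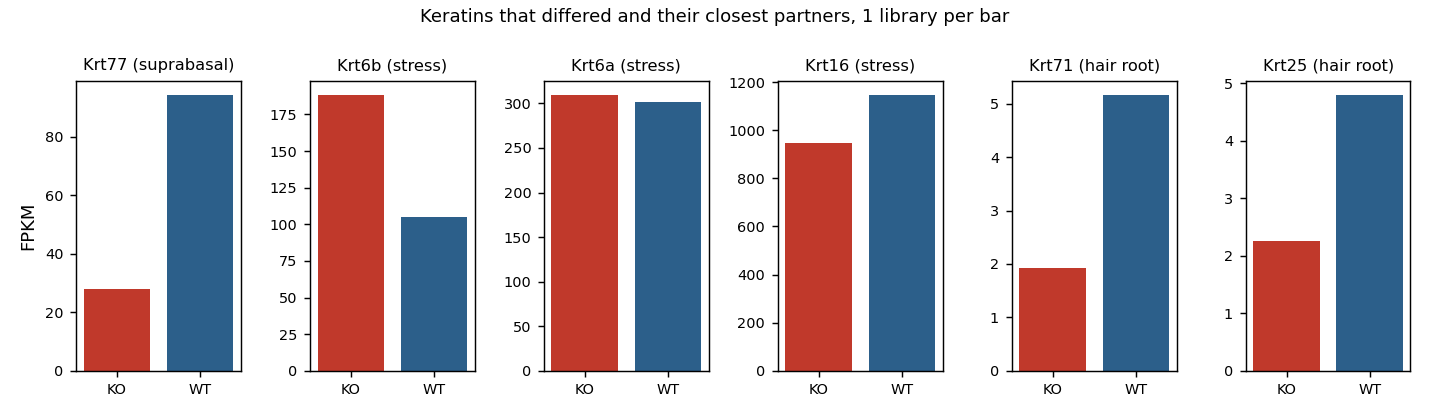
FPKM (linear axes from 0, each panel with its own range) of Krt77, Krt6b, Krt6a, Krt16, Krt71 and Krt25 in the KO library (red, left) and the wild-type library (blue, right); each bar is 1 library and has no error. Krt77, Krt71 and Krt25 are lower in the knockout library, Krt6b is higher, and Krt6a and Krt16 differ less.

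Hair follicle keratins were at low levels, and most were lower in the knockout library. Of the 24 members classed as root or shaft keratins 21 were lower by any amount. Among all 9130 genes with a mean FPKM of 0.01 to 5, the range of all of these but Krt79, 53.9% were lower. Krt79, a type II keratin of the upper follicle and sebaceous duct, was the most abundant by far, at 549 FPKM in the knockout library and 512 FPKM in the wild-type library. Krt75, the type II keratin of the companion layer, was at 4.74 FPKM in the knockout library, against 4.82 FPKM in the wild-type library; its sign turned when the libraries were rescaled. In RNA pooled over the cells of separated epidermis, fewer follicle cells in the sample and less keratin RNA per cell cannot be told apart.

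The 8 keratins of the inner root sheath, the layer that moulds the growing hair, summed to 6.75 FPKM in the knockout library and 14.2 FPKM in the wild-type library, 2.11-fold lower. Krt71, a type II keratin, was at 1.92 FPKM in the knockout library, against 5.17 FPKM in the wild-type library, a log2 difference of -1.08. The type I keratin Krt25 was at 2.26 FPKM in the knockout library and 4.80 FPKM in the wild-type library, a log2 difference of -0.83. In the authors' deposited table Krt71 has a p of 0.00155 with a q of 0.322, and Krt25 a p of 0.0127 with a q of 0.999. These values rest on about 131 and 140 fragments in the knockout library, against about 271 and 229 in the wild-type library. Krt27 was at 1.39 FPKM in the knockout library, against 2.09 FPKM in the wild-type library. Its type I neighbour Krt28 was at 0.60 FPKM in the knockout library and 1.09 FPKM in the wild-type library. Krt73, of type II, was at 0.43 FPKM in the knockout library, against 0.94 FPKM in the wild-type library. Krt26 was near the floor, at about 3 fragments in each library. The 2 members that were higher in the knockout library, Krt74 and Krt72-ps, rested on about 3 fragments there, against 2 and 1 in the wild-type library. GENCODE lists Krt74 as a transcribed pseudogene, and Krt72-ps under the name Krt72 as a protein-coding gene. Thus all 5 inner root sheath keratins with a mean above 0.4 FPKM were lower in the knockout library.

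The windows before Krt71 (chr15:101743098-101743347) and Krt25 (chr11:99322952-99323201), both on the minus strand (RefSeq, GRCm38.p6), are shown because these keratins of opposite type had the largest differences of the root sheath. Capitals mark TATAAA, present in both, and in Krt25 also TTCNNNGAA.
Krt71: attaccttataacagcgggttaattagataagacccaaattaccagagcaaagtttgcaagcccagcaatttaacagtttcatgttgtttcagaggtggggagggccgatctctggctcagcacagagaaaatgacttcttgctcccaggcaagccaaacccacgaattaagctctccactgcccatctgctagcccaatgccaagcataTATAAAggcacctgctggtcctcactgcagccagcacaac
Krt25: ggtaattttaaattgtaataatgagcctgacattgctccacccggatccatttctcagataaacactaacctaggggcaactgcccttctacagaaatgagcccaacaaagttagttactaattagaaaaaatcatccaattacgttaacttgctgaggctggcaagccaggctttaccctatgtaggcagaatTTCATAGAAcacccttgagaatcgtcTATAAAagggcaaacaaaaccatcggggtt
All 7 inner root sheath keratins with a window hold TATAAA, and 0 of them hold CTTTGAA. For Krt72-ps the only TATAAA is on the opposite strand, at position -203 from the start.

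Hair shaft keratins, which build the cortex and cuticle of the hair, were all lower in the knockout library, 14 of 14. Their summed level was 5.67 FPKM in the knockout library and 10.7 FPKM in the wild-type library, 1.89-fold lower. By the plain ratio of FPKM 8 of the 14 were at least 2-fold lower, where 15.1% of genes with a mean of 0.01 to 5 FPKM were. These 8 include Krt36, Krt39, Krt40 and Krt82, each on about 10 fragments or fewer in both libraries. The type I members summed to 3.94 FPKM in the knockout library, against 7.28 FPKM in the wild-type library. Those of type II summed to 1.73 FPKM in the knockout library and 3.46 FPKM in the wild-type library. Each gene rested on 0 to 93 estimated fragments in the knockout library and 1 to 98 in the wild-type library, so single values are imprecise. Krt36, Krt39 and Krt40 rested on too few fragments to give a direction. The cortex keratins are also near copies: Krt34 and Krt33a share 95.1% of aligned bases and Krt81 and Krt86 95.1%, so their values are not independent of each other.

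The most abundant shaft keratin, the cuticle keratin Krt32, was at 1.78 FPKM in the knockout library, against 2.45 FPKM in the wild-type library. Krt31, of the cortex, was at 0.73 FPKM in the knockout library and 1.35 FPKM in the wild-type library. Krt35, which appears early in the hair matrix, was at 0.59 FPKM in the knockout library, against 1.03 FPKM in the wild-type library. The type II cortex keratin listed as Krt83, whose accession GENCODE names Krt87, was at 0.67 FPKM in the knockout library and 1.35 FPKM in the wild-type library. These 4 were the shaft keratins past 1 FPKM in either library, and 3 of them passed in the wild-type library alone. Krt33a and Krt33b differed more, at 0.27 and 0.23 FPKM in the knockout library, against 0.89 and 0.85 FPKM in the wild-type library. Krt81 was at 0.25 FPKM in the knockout library, against 0.75 FPKM in the wild-type library. Krt34, Krt84 and Krt86 were at 0.28, 0.44 and 0.34 FPKM in the knockout library, against 0.51, 0.58 and 0.59 FPKM in the wild-type library. Krt82, of the cuticle, rested on about 1 fragment in the knockout library and 10 in the wild-type library. Krt36 rested on about 2 fragments in the knockout library and 4 in the wild-type library, and the cuticle keratins Krt39 and Krt40 were listed at 0 in the knockout library, against about 1 and 2 fragments in the wild-type library.

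The windows before 3 cortex keratins of the type I cluster, Krt31 (chr11:100050552-100050801), Krt33b (chr11:100029869-100030118) and Krt34 (chr11:100041555-100041804), all on the minus strand (RefSeq, GRCm38.p6), are shown as members that were lower together. Capitals mark TATAAA and CTTTGAA, and in Krt31 a TTCNNNGAA that overlaps CTTTGAA.
Krt31: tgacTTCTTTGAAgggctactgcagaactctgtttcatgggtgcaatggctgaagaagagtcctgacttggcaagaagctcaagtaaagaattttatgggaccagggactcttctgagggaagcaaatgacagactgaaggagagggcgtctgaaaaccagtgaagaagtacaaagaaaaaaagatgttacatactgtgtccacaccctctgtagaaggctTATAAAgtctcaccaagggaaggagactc
Krt33b: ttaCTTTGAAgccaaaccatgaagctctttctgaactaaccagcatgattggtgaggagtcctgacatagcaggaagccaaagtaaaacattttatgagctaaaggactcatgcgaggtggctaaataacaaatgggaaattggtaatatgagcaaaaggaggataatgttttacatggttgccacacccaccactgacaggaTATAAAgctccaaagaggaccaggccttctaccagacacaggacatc
Krt34: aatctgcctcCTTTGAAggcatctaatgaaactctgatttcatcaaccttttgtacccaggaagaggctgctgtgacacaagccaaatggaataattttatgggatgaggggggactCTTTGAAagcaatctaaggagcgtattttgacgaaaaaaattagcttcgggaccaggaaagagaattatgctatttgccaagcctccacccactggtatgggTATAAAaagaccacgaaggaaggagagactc
Of 9 hair shaft keratins with a window 6 hold TATAAA, Krt84 only on the opposite strand at position -206, and 5 hold CTTTGAA. The 5 are Krt31, Krt32, Krt33b, Krt34 and Krt39, and no other keratin with a window holds CTTTGAA. Lef1 itself was at 0.20 FPKM in the knockout library and 0.16 FPKM in the wild-type library.

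Keratin genes lie in 2 clusters, and the hair keratins form runs within them. On chromosome 11, from 99232761 to 100269871, lie 27 type I members, and on chromosome 15, from 101347444 to 102032027, lie 23 type II members with Krt18. In the type I cluster the neighbours Krt25 to Krt28 and the 9 shaft keratins from Krt39 to Krt36 were all listed at lower values in the knockout library. In these runs Krt26, Krt36, Krt39 and Krt40 rested on about 4 fragments or fewer in each library, which allow no direction. Between these runs Krt10, Krt12 and Krt23 were higher there, and Krt20 rested on about 1 fragment in the knockout library and 4 in the wild-type library. In the type II cluster the 5 shaft keratins from Krt83 to Krt82 were all lower; next to them Krt75 lay at -0.02 and Krt6b, Krt6a and Krt5 were higher. Krt71 and Krt73 flank Krt74 and Krt72-ps, whose few fragments likewise allow no direction. Krt77 lies between Krt1, which was higher in the knockout library, and Krt76, which had about 1 fragment there and was listed at 0 in the wild-type library.

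**Figure D4:**
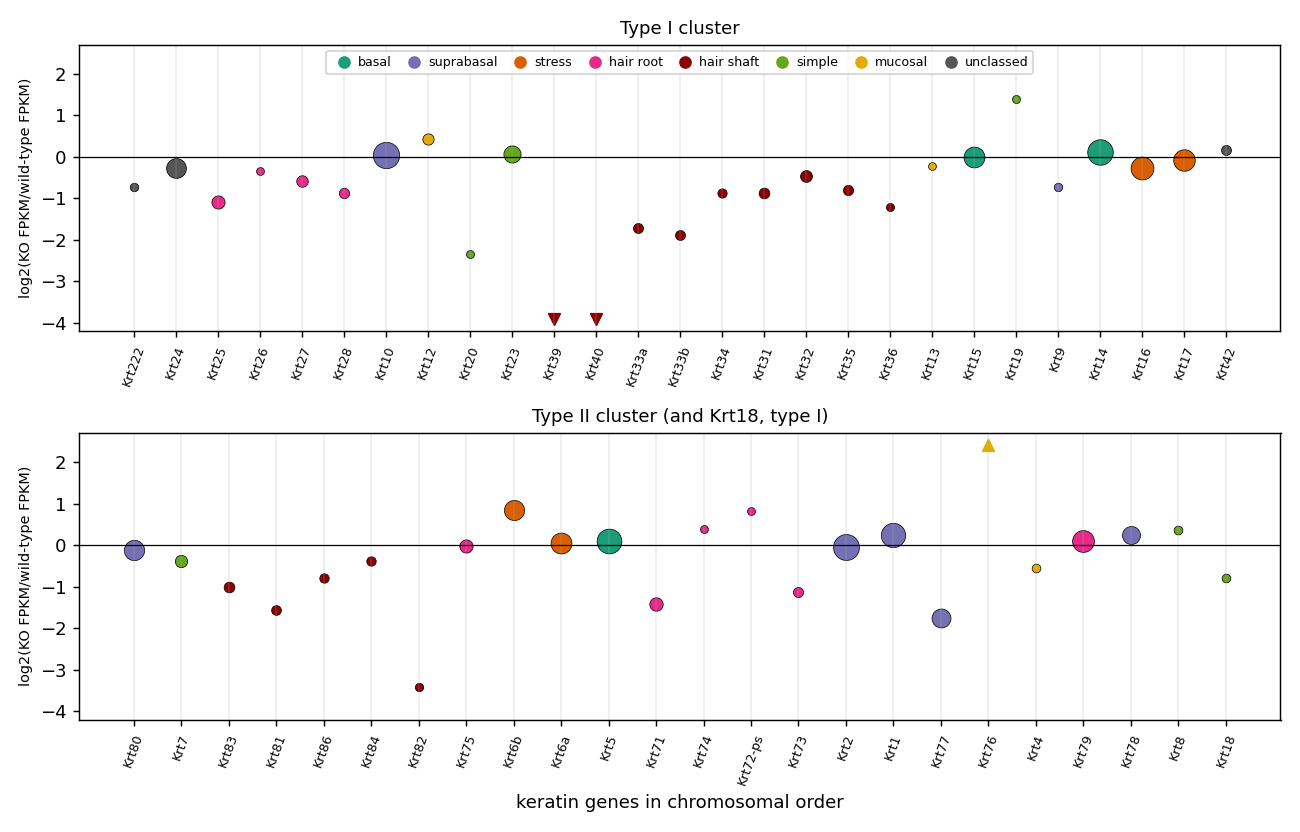
Plain log2 ratio of knockout over wild-type FPKM for keratins in chromosomal order, type I cluster above and type II cluster below, coloured by site, with larger points for more abundant genes. Triangles mark genes listed at 0 in the knockout library (pointing down) or the wild-type library (pointing up), for which no ratio exists; the 2 runs of hair shaft keratins lie below 0, while the large points of Krt10, Krt14, Krt5, Krt1 and Krt2 lie near 0.

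Keratins of simple epithelia were mostly near the floor. Krt23, a type I keratin, was the exception at 35.4 FPKM in the knockout library, against 33.99 FPKM in the wild-type library. Krt7, of glandular epithelia, was at 2.35 FPKM in the knockout library and 3.08 FPKM in the wild-type library. Krt8 was at 0.30 FPKM in the knockout library, against 0.23 FPKM in the wild-type library. Its type I partner Krt18 was at 0.17 FPKM in the knockout library and 0.29 FPKM in the wild-type library. Krt19 and Krt20 were each under 0.1 FPKM in both libraries. Krt8, Krt18 and Krt20 also mark Merkel cells, whose 10 other markers summed to 1.35 FPKM in the knockout library, against 0.99 FPKM in the wild-type library, with Sox2 listed at 0 in both. Krt8 and Krt18 rested on about 7 to 19 fragments, too few to give a direction for either.

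Of the 4 mucosal and corneal keratins only Krt12, the type I keratin of the cornea, reached 1 FPKM, at 1.80 FPKM in the knockout library and 1.34 FPKM in the wild-type library. Krt4 was at 0.21 FPKM in the knockout library, against 0.30 FPKM in the wild-type library, while its partner Krt13 rested on about 1 fragment in each. Of the 3 members given no site, Krt24 was at 129 FPKM in the knockout library and 156 FPKM in the wild-type library, a log2 difference of -0.27. Krt42 was at 0.87 FPKM in the knockout library, against 0.77 FPKM in the wild-type library. Krt222 was at 0.13 FPKM in the knockout library and 0.21 FPKM in the wild-type library.

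Transcripts for proteins that anchor keratin filaments at desmosomes and hemidesmosomes differed little. Of 16 such genes 14 were lower in the knockout library by any amount. Of the 15 past 1 FPKM 13 were, where 55.6% of all genes past that limit were, and 0 by 2-fold. Their median log2 difference was -0.09, beside -0.02 for all genes. Eppk1, which encodes the keratin-binding plakin epiplakin, is listed jointly with BC024139. The joint entry was at 11.5 FPKM in the knockout library, against 18.4 FPKM in the wild-type library. Dsp, which encodes desmoplakin, the link from desmosomes to keratin, was at 506 FPKM in the knockout library and 589 FPKM in the wild-type library. Of 11 genes whose products bundle, cross-link or modify filaments in cornifying cells 6 were higher and 5 lower. Of the 9 past 1 FPKM 3 were lower, where 55.6% of all genes past that limit were. The median log2 difference of the 9 was 0.07. Rptn, the filaggrin-related repetin, was at 28.0 FPKM in the knockout library, against 14.97 FPKM in the wild-type library. Tgm1, a cross-linking transglutaminase, was at 70.1 FPKM in the knockout library and 93.1 FPKM in the wild-type library. Tchh, the trichohyalin of the inner root sheath, was at 2.76 FPKM in the knockout library, against 4.13 FPKM in the wild-type library, lower like the keratins of that layer.

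Of 17 transcription factors known to act on keratin genes 11 were higher in the knockout library and 6 lower, and 0 differed by 2-fold. Of the 16 past 1 FPKM 6 were lower, where 55.6% of all genes past that limit were. The median log2 difference of the 16 was 0.04. Klf4, a factor of differentiating keratinocytes, was at 372 FPKM in the knockout library and 471 FPKM in the wild-type library. Cebpa was at 187 FPKM in the knockout library, against 233 FPKM in the wild-type library. Hoxc13, a regulator of hair keratins, was at 3.74 FPKM in the knockout library and 2.79 FPKM in the wild-type library, opposite in direction to those keratins. Of 11 intermediate filament genes other than keratins 3 were higher and 6 lower. Of the 5 past 1 FPKM 2 were lower, where 55.6% of all genes past that limit were. Vim, the vimentin of mesenchymal and immune cells, was at 34.7 FPKM in the knockout library, against 41.6 FPKM in the wild-type library. Des and Nefl were listed at 0 in both.

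Hair follicle, melanocyte and Langerhans cell markers had lower sums in the knockout library, as the inner root sheath and hair shaft keratins had. The 10 keratinocyte markers other than keratins also had a lower sum, at 8604 FPKM in the knockout library and 9238 FPKM in the wild-type library. Of these 10, 8 were lower. All 24 hair keratins together, Krt79 included, summed to 566 FPKM in the knockout library and 542 FPKM in the wild-type library. Sebaceous gland, T cell and Merkel cell markers had higher sums in the knockout library. The part of these cell types in the hair keratin result was not tested. Of 15 hair follicle markers other than keratins 11 were lower in the knockout library by any amount, and 7 of the 10 past 1 FPKM, where 55.6% of all genes past that limit were, with sums of 158 FPKM in the knockout library and 169 FPKM in the wild-type library. The largest log2 difference among the 15 was that of S100a3, which encodes a hair cuticle protein. It was at 6.18 FPKM in the knockout library, against 8.85 FPKM in the wild-type library. The 4 markers that were higher were Hoxc13, Foxn1, Msx2 and Lef1. Gata3, at 83.9 FPKM in the knockout library and 86.1 FPKM in the wild-type library, gave the largest part of both sums. Sebaceous gland markers, from the appendage attached to the follicle, summed to 1318 FPKM in the knockout library and 1312 FPKM in the wild-type library, with 6 of 10 higher. All 8 melanocyte markers were lower, 6 of them past 1 FPKM, with sums of 18.1 FPKM in the knockout library, against 22.1 FPKM in the wild-type library. Langerhans cell markers, all 8 past 1 FPKM, were lower in 7 cases and summed to 567 FPKM in the knockout library and 780 FPKM in the wild-type library. T cell markers were split evenly, at 74.1 FPKM in the knockout library, against 72.4 FPKM in the wild-type library over 6 genes.

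Markers of tissue below the epidermis were near the floor apart from Postn, which encodes periostin. Of 7 fibroblast markers 5 were lower in the knockout library, with sums of 84.3 FPKM in the knockout library and 102 FPKM in the wild-type library, of which Postn gave 82.2 and 99.6 FPKM. Muscle and cartilage markers summed to 1.72 FPKM in the knockout library, against 2.82 FPKM in the wild-type library, with Des and Myh4 listed at 0 in both. Endothelial markers summed to 0.85 FPKM in the knockout library and 1.28 FPKM in the wild-type library, with Cdh5 and Kdr listed at 0 in both.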

How the data were processed

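RNA-seq values of 2 libraries were used. Per the labels' protocols, dispase II treatment of the ears (37 °C for 1 h at 1 mg/ml) freed the epidermis, and libraries were made from 3 µg of Trizol-extracted RNA with a TruSeq mRNA kit. Per the submitters' processing notes, TopHat2 2.0.13, Cufflinks 2.2.1 and mm10 were used; annotation, options and scaling are stated in none of the sources used here. The authors deposited FPKM per gene, a log2 fold change, a test score and a p-value and q-value, per the file headers; the test values were copied, not recomputed. Groups follow the genotype labels, and columns were matched by name.

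Of 29246 rows, 2982 without a name or RefSeq transcript were left out, and rows of the same name were summed for 22 genes, none of them a keratin. Differences, counted at 2-fold, were taken on the log2 scale after adding 1 FPKM to both values, for genes reaching 1 FPKM in a library. The table gives no counts: depth was estimated from the lowest step of FPKM times length over single-transcript genes of 3 to 12 kb, and fragments per gene are rounded estimates without intervals. With 1 library per genotype there was no test across animals. Counting at 2-fold and at low levels covers these libraries only.

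The members, sites and lists were chosen with earlier results of these data known. All keratins with at least 1 FPKM were named, with the 3 highest of the rest; other low keratins, the inner root sheath subset, the level range of 0.01 to 5 FPKM, the limits of 0.1, 0.4 and 40 FPKM and the motifs were picked after their values were seen. Positions and transcripts are those of GENCODE M21 (GRCm38), matched by RefSeq accession for all 51 genes, and were compared with blastn 2.17.0+. Promoter windows, 250 bases before the start and 1 per gene, are from RefSeq. Alternatives were other pseudocounts, filters, scalings and thresholds. Python 3.11.15 with numpy 2.4.6, pandas 2.3.3 and matplotlib 3.10.9 was used; 3 files of spreadsheet settings were not.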

Additional observations from a re-analysis of the deposited data

How the results depend on the processing

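Each genotype has 1 library, so no replicate could be left out and no replicate spread is known. No paired analysis was possible because the labels give no replicate numbers. The count of 2 keratins lower at 2-fold was 1 with a pseudocount of 5 FPKM and 0 at 4-fold, and the count of 0 higher was 1 at 1.5-fold. The median over the 10 hair keratins past 1 FPKM was -0.38. Of these 10, 4 passed in the wild-type library alone, which favours lower values. The median was -0.74 and -0.14 with pseudocounts of 0.1 and 5 FPKM, and -0.28 without a filter. After scaling on the median gene and on the upper quartile it was -0.37 and -0.36. With a filter of 5 FPKM it was -0.49, but this covers only Krt71 at -1.08 and Krt79 at 0.10. Krt71 passed that filter in the wild-type library alone. The median over epidermal keratins, 0.04, was 0.015 without a filter and 0.065 and 0.074 after these scalings. The median over all keratins, -0.09, was 0.040 with the filter of 5 FPKM, which leaves few hair keratins, and -0.062 and -0.054 after the scalings. The type I share differed by 0.26 percentage points, and by -1.35 without Krt1, Krt10, Krt5 and Krt14. Leaving out merged rows changed none of these values, since 0 keratin rows join several genes. Of the 27 keratins past 1 FPKM, 2 changed sign when the libraries were rescaled, Krt15 and Krt75; both scalings move all genes alike, by 0.025 and 0.034 on the log2 scale, and a pseudocount cannot change a sign. Depth limits the 24 keratins under 1 FPKM, which rest on 0 to 49 estimated fragments.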
